A study of Homo sapiens with 15 samples.

Results

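The genes described here encode the chains of the classical major histocompatibility complex (MHC) class II molecules and the proteins that load and switch them on. They are HLA-DRA, HLA-DRB1, HLA-DPA1, HLA-DPB1, HLA-DQA1, HLA-DQB1, HLA-DMA, HLA-DMB, CD74 and CIITA, chosen by gene symbol and not by any measured value. All 10 were found once in each of the 2 deposited tables, which list 19620 protein-coding entries apiece. RNA of OCI-AML5, an established human acute myeloid leukemia line grown with GM-CSF, was sequenced in 15 libraries, 3 in each of 5 groups. In the drug experiment, cells received 1000 nM ARV-825 for 4 h or 1000 nM OTX015 for 4 h, and the controls were labelled as having had no treatment, so no vehicle group is described. In the shRNA experiment, cells were transduced for 72 h with RUNX1 shRNA or with a non-targeting shRNA. OTX015 is a small molecule that occupies the bromodomains of BET proteins, which read acetylated chromatin. ARV-825 is a proteolysis targeting chimera that joins a BET ligand built on OTX015 to a ligand of the cereblon ubiquitin ligase, so that BET proteins are degraded. The series title speaks of mutant RUNX1 leukemia, and every group is 1 cell line.

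MHC class II molecules present peptides from the endosomal pathway to CD4+ T cells, and each is a pair of an alpha chain and a beta chain. The invariant chain, CD74, holds newly made pairs and guides them to the endosome, where the HLA-DM pair (HLA-DMA and HLA-DMB) helps exchange the last piece of CD74 for a peptide. Their promoters carry short conserved boxes bound by the RFX complex, CREB-family factors and NF-Y, a platform known as the enhanceosome. CIITA does not bind DNA itself but docks on that platform and is the main limiting coactivator of the family. In the myeloid lineage, class II expression is typical of monocytes, macrophages and dendritic cells, and of many monocytic leukemias.

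Promoter windows from RefSeq (build GRCh38.p14) were searched for letters of the boxes on which CIITA acts, and 4 are printed because their genes gave contrasting readouts. Each is read 5′ to 3′ on the gene's own strand, from 250 bases before the annotated start to 50 bases from it. Capitals mark ACNGATG, letters at the end of the X box, where RFX and CREB-family factors dock, and ATTGG or CCAAT, the letters of the NF-Y site on either strand. The letters of the X box were chosen with these windows in view. HLA-DRB1 is a beta chain gene whose RNA rose with ARV-825 (chr6:32589799-32590098, minus strand).
HLA-DRB1: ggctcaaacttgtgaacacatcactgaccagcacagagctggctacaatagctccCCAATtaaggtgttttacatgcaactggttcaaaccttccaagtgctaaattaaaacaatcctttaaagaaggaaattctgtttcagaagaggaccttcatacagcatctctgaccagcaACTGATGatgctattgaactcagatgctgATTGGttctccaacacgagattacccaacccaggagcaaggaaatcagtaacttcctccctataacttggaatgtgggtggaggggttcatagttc
HLA-DPB1 is the HLA-DP beta chain gene, and its RNA rose likewise (chr6:33075740-33076039, plus strand).
HLA-DPB1: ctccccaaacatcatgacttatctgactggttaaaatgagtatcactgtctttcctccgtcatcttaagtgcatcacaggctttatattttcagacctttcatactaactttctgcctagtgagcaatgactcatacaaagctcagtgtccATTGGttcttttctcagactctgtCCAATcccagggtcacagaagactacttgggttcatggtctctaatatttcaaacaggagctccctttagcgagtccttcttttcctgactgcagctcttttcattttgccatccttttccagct
HLA-DMA rose with ARV-825 and fell with OTX015 (chr6:32953048-32953347, minus strand).
HLA-DMA: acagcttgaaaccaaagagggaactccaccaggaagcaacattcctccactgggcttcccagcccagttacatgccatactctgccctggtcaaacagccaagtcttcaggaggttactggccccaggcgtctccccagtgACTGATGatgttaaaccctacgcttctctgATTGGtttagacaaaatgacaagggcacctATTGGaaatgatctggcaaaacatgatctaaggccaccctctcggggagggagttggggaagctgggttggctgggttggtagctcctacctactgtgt
HLA-DMB, the partner chain of HLA-DMA, fell with both compounds (chr6:32940979-32941278, minus strand).
HLA-DMB: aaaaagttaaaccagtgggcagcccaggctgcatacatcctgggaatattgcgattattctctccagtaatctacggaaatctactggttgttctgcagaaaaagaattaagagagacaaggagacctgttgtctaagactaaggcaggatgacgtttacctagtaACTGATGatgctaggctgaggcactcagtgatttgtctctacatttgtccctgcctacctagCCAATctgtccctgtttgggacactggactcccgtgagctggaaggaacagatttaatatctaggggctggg

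Of 35116 promoter windows of this length, 7.65% held the X box letters on either strand, 34.6% held ATTGG or CCAAT, and 2.78% held both. HLA-DRB1 held the X box letters at position -75 from its start, with ATTGG at -46 and CCAAT at -195. HLA-DMA held them at -109, with ATTGG at -79 and -49. HLA-DMB held them at -84, with CCAAT at -22. The X box letters were thus followed by an exact match to the NF-Y letters in all 3, but not by the same one. In HLA-DRB1 and HLA-DMA, ATTGG on the same strand came next, at -46 and -79. In HLA-DMB the only exact match that followed was CCAAT, the letters of the site on the opposite strand, farther off at -22. The HLA-DMB window reads atttg, which is not an exact match, at the distance from the X box letters where HLA-DMA has ATTGG. The difference between HLA-DMA and HLA-DMB, which moved in opposite directions with ARV-825, thus rests on the exact letters searched for. Whether it bears on their direction was not tested. HLA-DPB1 held ATTGG at -99 and CCAAT at -75 and no match to the X box letters. Among the members whose windows are not printed, HLA-DQB1 held the X box letters at -117, with ATTGG at -88 and CCAAT at -64. HLA-DQA1 held CCAAT at -222 and ATTGG at -68 and no match to the X box letters. CD74 held CCAAT at -53 with the X box letters far upstream of it on the opposite strand at -209. HLA-DPA1 held neither motif in its 2 annotated windows. A match is a run of letters and not a measured binding site. HLA-DRA and CIITA were not among the promoter windows used.

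The deposited values were taken to be FPKM (fragments counted per kilobase of a gene's transcript, scaled for sequencing depth), a unit in which genes can be compared within a library. The values had been quantile normalized within each table, and the tables were normalized separately, so no test crosses them. Sums per library ran from 554570 to 656995 FPKM and 10496 to 10927 genes reached 1 FPKM. The number of reads behind a value is not known, so intervals for counting error are not given. The library of ARV-825 replicate 1 lists at 0 FPKM 6 of 13 mitochondrially encoded genes that were at 1 FPKM or more in the 8 other drug libraries, so a 0 can be a failed estimate. No member was at 0 in any library. RUNX1 itself, which checks the shRNA labels, had 37.2, 42.9 and 36.0 FPKM with RUNX1 shRNA, against 69.8, 72.2 and 69.8 FPKM with non-targeting shRNA (log2 change -0.85, limma adjusted p = 3.71e-05). The titles of the RUNX1 shRNA libraries name Runx3, and RUNX3 averaged 28.4 FPKM with RUNX1 shRNA and 27.0 FPKM with non-targeting shRNA (limma adjusted p = 0.341). The treatment label was followed. Of 10 monocyte markers, 8 averaged at least 1 FPKM in both tables, with LYZ highest. CD14 and CD163 of that list averaged under 1 FPKM in both. Among markers of other cell types, EBF1 of the B cell list, CD1C and CD1E of the dendritic cell list and CD2 and TRAT1 of the T cell list were listed at 0 in every library. Others of these lists were measured, with CD79A at a mean of 3.99 FPKM, FLT3 at 2.87 FPKM and IL7R at 12.04 FPKM over the drug libraries.

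CD74 was the most abundant member in every group, followed by HLA-DRA and HLA-DPA1. CD74 averaged 523 ± 38.1 FPKM with ARV-825, 504 ± 14.8 FPKM with OTX015 and 507 ± 16.3 FPKM in controls (SD, n = 3 each, as for all means below). HLA-DPB1 and HLA-DRB1 came next, and the ranges of these neighbours over libraries overlapped in every group. HLA-DMA was the sixth gene in every group. In controls, CIITA stood just under HLA-DMA, and HLA-DMB stood lower, with no overlap between these 3. In ARV-825 and OTX015 libraries, CIITA stood level with HLA-DMB, and their ranges overlapped. HLA-DQA1 and HLA-DQB1 lay at the bottom, with overlapping ranges in all drug groups. In both shRNA groups the first 8 genes stood in the order of the controls, with HLA-DPB1 and HLA-DRB1 overlapping as there. HLA-DQA1 stood above HLA-DQB1 in both shRNA groups, with their ranges apart.

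**Figure D1:**
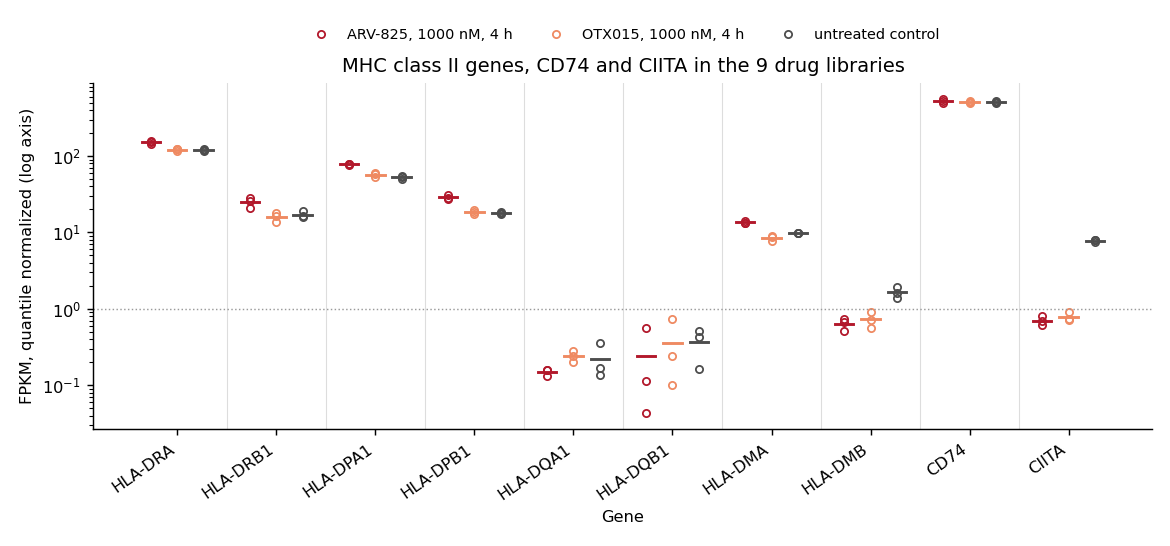
Level of each member in the 9 drug libraries, in FPKM on a log10 axis, with ARV-825, OTX015 and control from left to right, 1 point per library and a bar at each group mean. CIITA stands near 8 FPKM in the controls and below 1 FPKM in all 6 compound libraries, whereas HLA-DPA1 and HLA-DPB1 stand highest with ARV-825.

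Beginning with the regulator, CIITA was lowered by both compounds within 4 h. It had 0.807, 0.694 and 0.611 FPKM with ARV-825, 0.737, 0.898 and 0.708 FPKM with OTX015, and 7.53, 8.07 and 7.87 FPKM in controls. Every treated library stood far below every control library. Mean CIITA with ARV-825 was 9.0% of the control mean, and with OTX015 it was 9.98%. All tests of members use limma on log2(FPKM + 1), fitted over every gene that averaged 1 FPKM or more, and p-values adjusted by Benjamini-Hochberg were called under 0.05. On that scale, which understates changes near 1 FPKM, CIITA fell by 2.37 with ARV-825 (SE 0.080, 95% interval -2.55 to -2.20, limma adjusted p = 2.02e-09). The change with OTX015 was -2.31 (SE 0.080, limma adjusted p = 3.65e-09). With a pseudocount of 0.1 FPKM in place of 1, the same changes were -3.31 with ARV-825 and -3.17 with OTX015. CIITA was among the 49 lowest changes of 10819 tested genes with ARV-825 and among the 26 lowest with OTX015. It reached the minimum of 1 FPKM only through the controls and so had to differ to be tested, which limits its rank and p-values against controls. The compounds, tested at the same dose and time, did not differ in CIITA beyond the spread between libraries (ARV-825 minus OTX015 -0.06, 95% interval -0.24 to 0.11, limma adjusted p = 0.514). DEXI overlaps CIITA on the opposite strand, and strand is not stated in the labels. DEXI was higher with both compounds (log2 change 0.27 with ARV-825 and 0.39 with OTX015), opposite to CIITA. The part of DEXI reads in the CIITA values was not tested.

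The DR and DP chain genes and HLA-DMA went the other way with ARV-825. Of the 8 members tested in the drug experiment, 5 rose with ARV-825 (HLA-DRA, HLA-DRB1, HLA-DPA1, HLA-DPB1 and HLA-DMA), beside 35.8% of all tested genes. With OTX015, 0 of the 8 rose, beside 36.1% of all tested genes, at an adjusted p or at an unadjusted p under 0.05 by limma, the sole tool used. CIITA and HLA-DMB fell with ARV-825, and CIITA, HLA-DMB and HLA-DMA fell with OTX015, beside 38.4% of genes lower with ARV-825 and 33.5% lower with OTX015. Given the background, the counts of falling members are not set apart from the rest of the genes. CIITA and HLA-DMB reached a mean of 1 FPKM in the drug fit only because of the control libraries, and such genes had to differ to be tested. HLA-DQA1 and HLA-DQB1 stayed under the minimum and were not tested. The median log2 change of the tested members was 0.38 with ARV-825 and -0.05 with OTX015, against -0.01 and 0.03 over all tested genes. The contrasts with ARV-825 and with OTX015 share the control libraries. Without ARV-825 replicate 1, the library with the mitochondrial zeros, the same 5 members rose by 0.30 to 0.65, and CIITA was at -2.42 and HLA-DMB at -0.73.

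HLA-DRA encodes the alpha chain shared by HLA-DR molecules. It had 157, 145 and 151 FPKM with ARV-825, 124, 122 and 117 FPKM with OTX015, and 124, 119.8 and 117 FPKM in controls. The ARV-825 libraries stood above all others, and the OTX015 and control libraries overlapped. HLA-DRA rose by 0.33 on the log2 scale with ARV-825 (SE 0.043, limma adjusted p = 3.97e-05). Its change with OTX015 was 0.01 (95% interval -0.09 to 0.10, limma adjusted p = 0.872). HLA-DRB1, a beta chain that pairs with it, had 21.0, 25.9 and 28.5 FPKM with ARV-825, 18.0, 16.3 and 13.6 FPKM with OTX015, and 19.0, 16.4 and 15.8 FPKM in controls. Its ARV-825 libraries also stood above all others, with a wider spread. HLA-DRB1 rose by 0.53 with ARV-825 (SE 0.12, limma adjusted p = 0.00229), and its change with OTX015 was -0.10 (95% interval -0.36 to 0.17, limma adjusted p = 0.498). HLA-DRB5 is a near copy of HLA-DRB1, and reads may have been split between them, so the level of either is uncertain. HLA-DRB5 averaged 4.76 FPKM with ARV-825, 2.85 FPKM with OTX015 and 2.72 FPKM in controls. It rose by 0.62 with ARV-825 (limma adjusted p = 0.00380), and its change with OTX015 was 0.05 (limma adjusted p = 0.807).

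The HLA-DP pair gave the same contrast between compounds. HLA-DPA1, the alpha chain, had 77.8, 75.6 and 79.0 FPKM with ARV-825, 59.8, 57.7 and 53.3 FPKM with OTX015, and 54.9, 53.9 and 50.1 FPKM in controls. The ARV-825 libraries lay apart from all others, while 1 OTX015 library fell within the control range. HLA-DPA1 rose by 0.54 with ARV-825 (SE 0.052, limma adjusted p = 3.33e-06), and its change with OTX015 was 0.10 (95% interval -0.01 to 0.22, limma adjusted p = 0.102). Without OTX015 replicate 3, the lowest of that group, the change with OTX015 was 0.15 (limma adjusted p = 0.0229). HLA-DPB1, the beta chain, had 30.8, 28.3 and 27.3 FPKM with ARV-825, 19.9, 18.6 and 17.4 FPKM with OTX015, and 17.8, 18.7 and 17.6 FPKM in controls. Again only ARV-825 set its libraries apart. HLA-DPB1 rose by 0.64 (SE 0.061, limma adjusted p = 3.22e-06), and with OTX015 its change was 0.04 (95% interval -0.10 to 0.18, limma adjusted p = 0.570). Both genes overlap each other on opposite strands, and with the strand of the libraries not stated, a share of reads between them was not tested. HLA-DQA1 averaged 0.150 ± 0.0162 FPKM with ARV-825, 0.241 ± 0.0394 FPKM with OTX015 and 0.221 ± 0.120 FPKM in controls. HLA-DQB1 averaged 0.242 ± 0.286 FPKM with ARV-825, 0.360 ± 0.338 FPKM with OTX015 and 0.369 ± 0.184 FPKM in controls. In both HLA-DQ genes the libraries of each compound overlapped the controls.

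The loading genes did not move as a unit. HLA-DMA had 13.5, 14.2 and 13.3 FPKM with ARV-825, 8.86, 8.61 and 7.81 FPKM with OTX015, and 9.90, 9.77 and 9.83 FPKM in controls. It was the member whose groups were fully ordered, with ARV-825 above the controls and OTX015 below them. HLA-DMA rose by 0.43 with ARV-825 (SE 0.060, limma adjusted p = 5.62e-05) and fell by 0.20 with OTX015 (limma adjusted p = 0.0109). HLA-DMB, its partner, had 0.734, 0.519 and 0.674 FPKM with ARV-825, 0.720, 0.905 and 0.554 FPKM with OTX015, and 1.61, 1.94 and 1.40 FPKM in controls. All treated libraries were below all controls. HLA-DMB fell by 0.69 with ARV-825 (SE 0.11, limma adjusted p = 0.000154) and by 0.62 with OTX015 (limma adjusted p = 0.000398), at levels near the minimum for testing. Its mean lies below that minimum once any control library is left out, and no value is then given. The ratio of HLA-DMA to HLA-DMB averaged 21.8 ± 4.79 with ARV-825, 11.97 ± 2.31 with OTX015 and 6.07 ± 0.990 in controls. CD74 had 563, 487 and 519 FPKM with ARV-825, 503, 519 and 489 FPKM with OTX015, and 524, 503 and 492 FPKM in controls. The 3 groups overlapped, and the change was 0.04 with ARV-825 (95% interval -0.09 to 0.17, limma adjusted p = 0.510) and -0.01 with OTX015 (95% interval -0.14 to 0.12, limma adjusted p = 0.907). The ratio of CD74 to HLA-DRA averaged 3.45 ± 0.118 with ARV-825, 4.16 ± 0.0839 with OTX015 and 4.21 ± 0.0175 in controls. AL645941.2, annotated as protein-coding, overlaps both HLA-DMA and HLA-DMB on the same strand. Its part in the values of these genes and in their ratio was not tested. HLA-DMA also overlaps BRD2 on the opposite strand. BRD2, a BET gene, averaged 225 FPKM with ARV-825, 319.5 FPKM with OTX015 and 93.0 FPKM in controls. Relative to controls, BRD2 and HLA-DMA were both higher with ARV-825, while with OTX015 BRD2 was higher and HLA-DMA lower. The part of BRD2 reads in the HLA-DMA values was not tested.

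The compounds were compared directly in the same fit, over the same 8 members. Of these, 5 were higher with ARV-825 than with OTX015, beside 24.7% of all tested genes, and 0 were lower, beside 33.4%. No member was lower at an unadjusted p under 0.05 by limma either. CIITA and HLA-DMB were among the 8 only through the control libraries. Both averaged under 1 FPKM with each compound, where the scale compresses a difference, so they could hardly be called. The differences in log2 (ARV-825 minus OTX015) were 0.64 for HLA-DMA (SE 0.060, limma adjusted p = 1.23e-05) and 0.62 for HLA-DRB1 (SE 0.12, limma adjusted p = 0.00129). They were 0.60 for HLA-DPB1 (limma adjusted p = 2.07e-05), 0.44 for HLA-DPA1 (limma adjusted p = 5.22e-05) and 0.32 for HLA-DRA (limma adjusted p = 0.000122). In each of these 5 genes, all 3 ARV-825 libraries were above all 3 OTX015 libraries, as held for 26.8% of tested genes. For CD74 the difference was 0.05 (95% interval -0.08 to 0.18, limma adjusted p = 0.466), and for HLA-DMB it was -0.07 (95% interval -0.31 to 0.17, limma adjusted p = 0.602). The degrader and the inhibitor therefore differed in the DR and DP chains and HLA-DMA, and no difference was resolved for CIITA, HLA-DMB or CD74. These p-values are adjusted over all tested genes and not over the members.

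**Figure D2:**
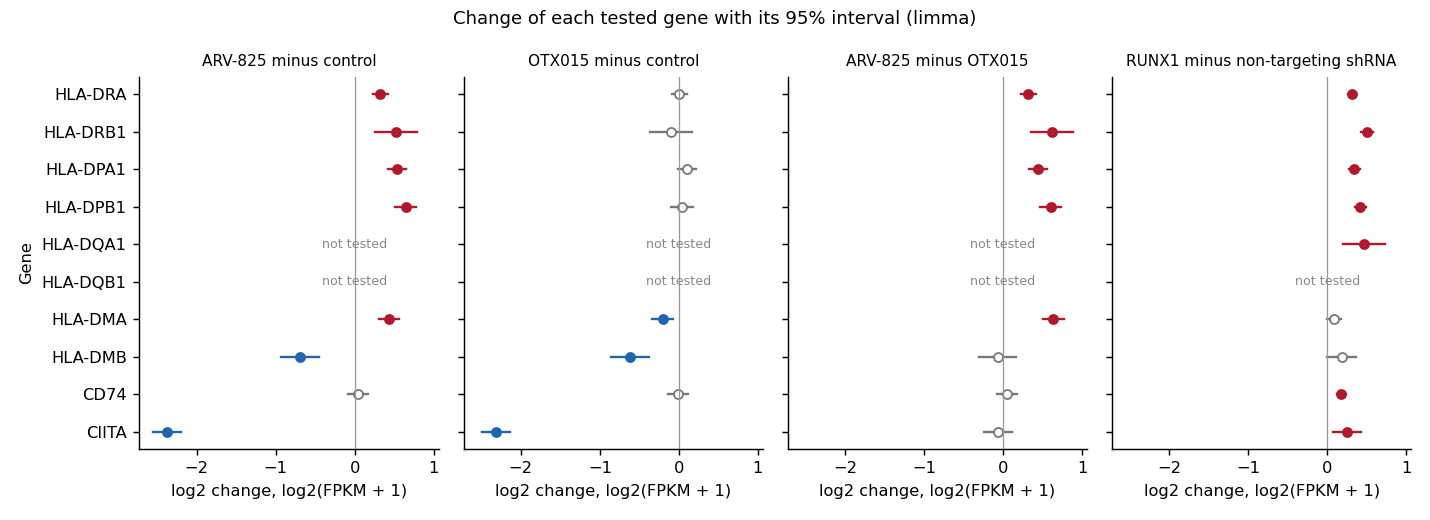
Change of each tested member on the log2(FPKM + 1) scale, with 95% limma intervals, for ARV-825 minus control, OTX015 minus control, ARV-825 minus OTX015 and RUNX1 shRNA minus non-targeting shRNA. Filled points passed the threshold, red for higher and blue for lower, and open points did not. CIITA stands at -2.37 with ARV-825 and -2.31 with OTX015, the DR and DP chains and HLA-DMA lie above 0 with ARV-825, and most members lie above 0 with RUNX1 shRNA.

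The level of HLA-DRA relative to CIITA shows how far this chain gene parted from the regulator at 4 h. The ratio averaged 217 ± 27.4 with ARV-825, 157 ± 17.5 with OTX015 and 15.4 ± 0.917 in controls. In the shRNA experiment it averaged 23.3 ± 3.00 with RUNX1 shRNA and 22.5 ± 0.394 with non-targeting shRNA. With both compounds every library stood above every control library. HLA-DRA itself changed by 0.01 on the log2 scale with OTX015, so the ratio there mostly reflects lower CIITA.

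Marker genes of other cell types moved with the compounds. The summed FPKM of the 10 monocyte markers was 606 to 643 with ARV-825, 483 to 499 with OTX015 and 789.6 to 831 in controls. Most of that sum was LYZ, at a mean of 493 FPKM over the drug libraries. For the 14 B cell markers, of which 2 averaged at least 1 FPKM (CD79A and TNFRSF13C), the sum was 6.29 to 8.43 with ARV-825, 3.35 to 4.17 with OTX015 and 5.76 to 6.87 in controls. OTX015 libraries were lowest in both lists. The 14 dendritic cell markers, of which BATF3 and FLT3 averaged at least 1 FPKM, summed to 4.10 to 5.89 with ARV-825, 3.44 to 3.93 with OTX015 and 9.27 to 10.2 in controls. The 10 T cell markers, of which CD8A and IL7R averaged at least 1 FPKM, summed to 7.78 to 8.90 with ARV-825, 6.72 to 7.75 with OTX015 and 25.7 to 28.97 in controls. IL7R was the highest T cell marker, at a mean of 12.04 FPKM over the drug libraries, and FLT3 the highest dendritic cell marker, at 2.87 FPKM. These sums do not give the direction of each marker. The part of the marker genes in the member values was not tested. In bulk RNA, fewer expressing cells and less RNA per cell cannot be told apart, nor can a change in total RNA per cell be seen after quantile normalization.

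Most of the family was higher with RUNX1 shRNA, CIITA included. Of the 9 members tested, 7 rose and 0 fell, beside 13.5% of tested genes higher and 13.8% lower. The 2 others, HLA-DMA and HLA-DMB, were higher at an unadjusted p under 0.05, and no member was lower at that level by limma. In 8 of the 9 tested members, all but HLA-DMB, every RUNX1 shRNA library stood above every non-targeting library, as held for 21.5% of tested genes. The median log2 change over the tested members was 0.31, against -0.01 over all tested genes.

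HLA-DRA had 348, 339.8 and 346 FPKM with RUNX1 shRNA, against 281, 276 and 277 FPKM with non-targeting shRNA. HLA-DRB1 had 65.0, 62.9 and 63.6 FPKM with RUNX1 shRNA, against 43.4, 46.5 and 44.3 FPKM with non-targeting shRNA. In both genes the groups were widely separated relative to their spread. The changes were 0.31 for HLA-DRA (SE 0.023, limma adjusted p = 4.88e-05) and 0.50 for HLA-DRB1 (SE 0.034, limma adjusted p = 3.62e-05). HLA-DRB5 averaged 7.49 FPKM with RUNX1 shRNA and 6.27 FPKM with non-targeting shRNA (0.23, limma adjusted p = 0.0646). HLA-DPA1 had 120.9, 119 and 125 FPKM with RUNX1 shRNA, against 97.6, 95.8 and 93.4 FPKM with non-targeting shRNA. HLA-DPB1, the partner chain, had 62.5, 64.8 and 64.4 FPKM with RUNX1 shRNA, against 48.3, 48.0 and 46.2 FPKM with non-targeting shRNA. Neither HLA-DP gene had overlapping groups, and the changes were 0.34 for HLA-DPA1 (limma adjusted p = 0.000136) and 0.42 for HLA-DPB1 (limma adjusted p = 5.44e-05).

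HLA-DQA1, the HLA-DQ alpha chain, could be tested here. It had 2.94, 2.29 and 2.92 FPKM with RUNX1 shRNA, against 2.10, 1.61 and 1.38 FPKM with non-targeting shRNA (0.47, SE 0.12, limma adjusted p = 0.0203). Its groups did not overlap. The limma adjusted p was 0.0643 with no filter on low values and ran from 0.0551 to 0.0714 without non-targeting replicate 2 or 3, or without RUNX1 shRNA replicate 1 or 3. HLA-DQA2, a near copy with which reads may be shared, rose by 0.30 (limma adjusted p = 0.0211). HLA-DQB1 averaged 0.720 ± 0.275 FPKM with RUNX1 shRNA and 0.774 ± 0.169 FPKM with non-targeting shRNA and was not tested. CD74 had 1129.7, 1138 and 1158 FPKM with RUNX1 shRNA, against 991, 1000.3 and 1035 FPKM with non-targeting shRNA. The CD74 groups were apart, with a rise of 0.18 (SE 0.026, limma adjusted p = 0.00174). HLA-DMA had 25.7, 26.8 and 25.2 FPKM with RUNX1 shRNA, against 23.7, 24.8 and 24.2 FPKM with non-targeting shRNA. The difference for HLA-DMA was 0.09 (95% interval 0.00043 to 0.18, limma adjusted p = 0.123). HLA-DMB had 8.31, 7.32 and 9.10 FPKM with RUNX1 shRNA, against 6.91, 6.83 and 7.58 FPKM with non-targeting shRNA. The HLA-DMB groups overlapped, and its difference was 0.19 (95% interval 0.0024 to 0.37, limma adjusted p = 0.121). Without RUNX1 shRNA replicate 2, the lowest of that group, it was 0.26 (limma adjusted p = 0.0362).

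CIITA had 15.3, 16.5 and 13.1 FPKM with RUNX1 shRNA, against 12.5, 12.5 and 12.1 FPKM with non-targeting shRNA. All RUNX1 shRNA libraries were above the non-targeting ones, with a wide spread. CIITA rose by 0.25 (SE 0.077, 95% interval 0.07 to 0.43, limma adjusted p = 0.0420). This call sat at the threshold. The limma adjusted p ran from 0.0919 to 0.117 without any 1 of the 3 non-targeting libraries or without RUNX1 shRNA replicate 1 or 2, and the call was kept without RUNX1 shRNA replicate 3. The limma adjusted p was 0.110 with no filter on low values and 0.0637 without the mean-variance trend. The rises of the DR and DP chains and of CD74 kept their calls under each alternative that was run.

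**Figure D3:**
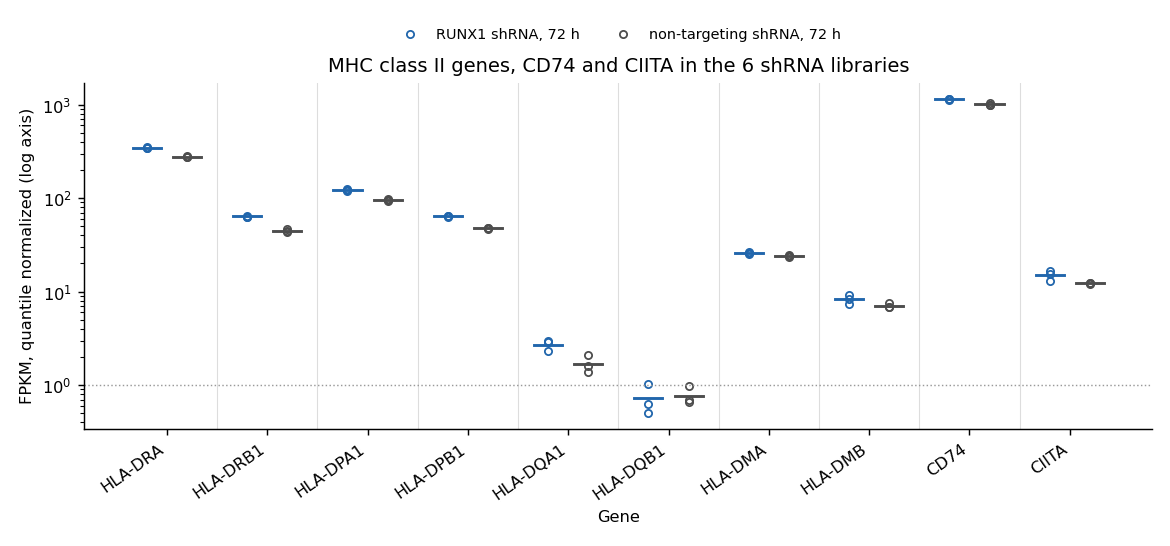
Level of each member in the 6 shRNA libraries, in FPKM on a log10 axis, with RUNX1 shRNA left of non-targeting shRNA, 1 point per library and a bar at each group mean. The dotted line marks 1 FPKM, and the groups are apart for CD74 and the DR and DP chains and overlap for HLA-DMB and HLA-DQB1.

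The monocyte marker sum was 581 to 590.1 FPKM with RUNX1 shRNA and 722 to 738 FPKM with non-targeting shRNA, opposite in direction to most class II genes. Most of that sum was LYZ, at a mean of 454 FPKM over the shRNA libraries, and it does not give the direction of each marker. The dendritic cell sum was 13.8 to 14.9 FPKM with RUNX1 shRNA and 20.6 to 21.4 FPKM with non-targeting shRNA, and 3 of its 14 markers averaged at least 1 FPKM. The T cell sum was 2.39 to 3.15 FPKM with RUNX1 shRNA and 5.55 to 6.30 FPKM with non-targeting shRNA. FLT3 was the highest dendritic cell marker, at a mean of 8.70 FPKM over the shRNA libraries. IL7R was the highest T cell marker, at 2.61 FPKM. Only the B cell sum was not lower, at 7.02 to 9.33 FPKM with RUNX1 shRNA and 6.44 to 7.46 FPKM with non-targeting shRNA, with overlapping ranges.

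The factors that dock on class II promoters changed in both directions with the compounds. Counts of the gene lists that follow stand beside the shares over all tested genes given above, and list medians beside the all-gene medians of -0.01 with ARV-825, 0.03 with OTX015 and -0.01 with RUNX1 shRNA. Of the 8 enhanceosome genes, 2 rose and 5 fell with ARV-825, and 2 rose and 5 fell with OTX015. RFXAP, a subunit of the RFX complex, averaged 0.506 FPKM with ARV-825, 1.47 FPKM with OTX015 and 3.86 FPKM in controls (log2 change -1.69 with ARV-825 and -0.98 with OTX015). Like CIITA and HLA-DMB, RFXAP would not have reached a mean of 1 FPKM without the controls. ATF1, a CREB-family factor, fell by 1.28 with ARV-825 and by 0.62 with OTX015. RFX5, the RFX subunit that contacts DNA, fell by 0.86 with ARV-825 and by 0.76 with OTX015. NFYA, an NF-Y subunit, and CREB1 were higher, by 0.50 and 0.22 with ARV-825 and by 1.26 and 0.88 with OTX015. Between the compounds, 7 of the 8 were lower with ARV-825 than with OTX015 and 0 were higher, at an unadjusted p under 0.05 as well by limma. With median-ratio rescaling, 6 were lower. This is the direction opposite to that of the DR and DP chains in the same comparison. With RUNX1 shRNA, 1 rose (RFX5, 0.13) and 1 fell (ATF1, -0.30). The median of the enhanceosome list was -0.59 with ARV-825, -0.20 with OTX015 and 0.08 with RUNX1 shRNA.

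Coactivators that have been reported to work with CIITA were mixed. Of 11 tested, 4 rose and 3 fell with ARV-825, and 7 rose and 3 fell with OTX015. TAF9, a subunit of general transcription complexes, rose by 1.32 with ARV-825 and by 1.36 with OTX015, while the arginine methyltransferase CARM1 fell by 0.59 with ARV-825 and by 0.61 with OTX015. The acetyltransferase EP300 was at -0.12 with ARV-825 and rose by 0.82 with OTX015. The acetyltransferase KAT2A was at 0.09 with ARV-825 and fell by 0.76 with OTX015. Between the compounds, 2 were higher and 4 lower with ARV-825. With RUNX1 shRNA, 3 rose and 1 fell, with CREBBP highest at 0.42 and TAF9 lowest at -0.23. The median of the coactivator list was 0.12 with ARV-825, 0.48 with OTX015 and -0.0035 with RUNX1 shRNA (0.0012 when rescaled).

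Regulators of CIITA transcription included a steep fall. Of 10 tested in the drug experiment, 2 rose and 6 fell with ARV-825, and 4 rose and 4 fell with OTX015. SPI1, the myeloid ETS factor PU.1, had 57.7, 60.4 and 61.5 FPKM with ARV-825, 63.4, 63.4 and 57.3 FPKM with OTX015, and 192, 221 and 212 FPKM in controls. All treated SPI1 libraries were far below the controls, with changes of -1.78 with ARV-825 and -1.75 with OTX015. CEBPA fell by 0.94 with ARV-825 and by 0.44 with OTX015, and IRF8 fell by 0.52 with ARV-825 and by 0.48 with OTX015. IRF1, an interferon-induced factor that acts on a CIITA promoter, was at -0.12 with ARV-825 and rose by 0.88 with OTX015. Between the compounds, 5 of the 10 were lower with ARV-825 and 0 higher by limma, also at an unadjusted p under 0.05. With RUNX1 shRNA, 0 of 11 tested rose, also at an unadjusted p under 0.05 by limma, and 3 fell, with IRF8 at -0.31 and CEBPA at -0.16. The median of these regulators was -0.34 with ARV-825, -0.03 with OTX015 and -0.05 with RUNX1 shRNA. Of the 6 genes of the interferon-gamma receptor and its kinases, 3 rose and 2 fell with ARV-825, and 3 rose and 1 fell with OTX015. IFNGR2, a receptor chain, fell by 1.12 with ARV-825 and by 0.87 with OTX015, while the kinase JAK1 rose by 0.63 with ARV-825 and by 0.69 with OTX015. Under rescaling 2 rather than 3 rose with ARV-825. With RUNX1 shRNA, limma called 0 of the 6, and 1 was higher at an unadjusted p under 0.05. The median of the interferon-gamma list was 0.02 with ARV-825, 0.21 with OTX015 and -0.03 with RUNX1 shRNA.

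**Figure D4:**
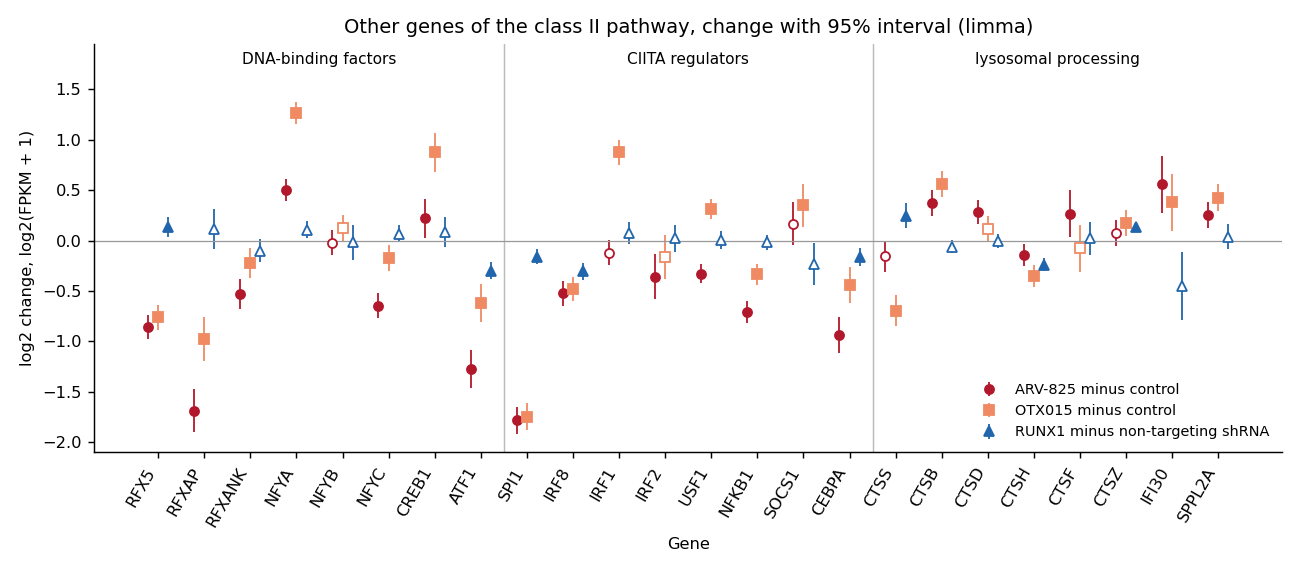
Change on the log2(FPKM + 1) scale, with 95% limma intervals, of the enhanceosome genes, regulators of CIITA and lysosomal processing genes named on the axis, for ARV-825 minus control (circles), OTX015 minus control (squares) and RUNX1 shRNA minus non-targeting shRNA (triangles). Filled symbols passed the threshold and open ones did not, and CREB1, which is on the first 2 lists, is drawn once. SPI1 stands lowest, near its values of -1.78 with ARV-825 and -1.75 with OTX015, and RFXAP at -1.69 with ARV-825 is next.

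The lysosomal genes that process antigen or CD74 also changed in both directions. Of 8 tested, 5 rose and 1 fell with ARV-825, beside 35.8% of all tested genes higher and 38.4% lower. With OTX015, 4 rose and 2 fell, beside 36.1% higher and 33.5% lower. IFI30, a thiol reductase of the antigen-loading compartment, rose by 0.56 with ARV-825 and by 0.38 with OTX015, and the protease CTSB rose by 0.38 with ARV-825 and by 0.56 with OTX015. CTSS, the protease known for the late cuts in CD74, was at -0.16 with ARV-825 and fell by 0.70 with OTX015. SPPL2A, which cleaves the CD74 remnant in the membrane, rose by 0.25 with ARV-825 and by 0.43 with OTX015. Between the compounds, 4 were higher and 2 lower with ARV-825. With RUNX1 shRNA, 2 of 9 rose (CTSS by 0.25 and CTSZ by 0.14) and 1 fell (CTSH by 0.24). The lysosomal median was 0.26 with ARV-825, 0.15 with OTX015 and -0.0058 with RUNX1 shRNA. Among 7 tested genes of class II surface turnover, 2 rose and 3 fell with ARV-825, and 1 rose and 3 fell with OTX015. MARCH1, the ubiquitin ligase that sends surface class II for degradation, averaged 0.377 FPKM with ARV-825, 0.683 FPKM with OTX015 and 2.21 FPKM in controls (log2 change -1.23 with ARV-825 and -0.93 with OTX015). MARCH1 reached a mean of 1 FPKM only through the controls. The related ligase MARCH8 fell by 0.73 with ARV-825, was at 0.15 with OTX015 and rose by 0.24 with RUNX1 shRNA, where 2 of the 7 genes rose and 2 fell. The median of the turnover list was 0.03 with ARV-825, -0.15 with OTX015 and -0.11 with RUNX1 shRNA.

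Of the 4 tested genes of co-stimulation and T cell contact, 1 rose and 2 fell with each compound. ICAM1, the adhesion ligand, rose by 0.66 with ARV-825 and by 0.57 with OTX015, while CD58, the ligand of CD2, fell by 0.77 with ARV-825 and by 0.38 with OTX015. With RUNX1 shRNA, 1 fell (CD58, by 0.37) and 0 rose by limma, also at an unadjusted p under 0.05. The median of the 4 was -0.20 with ARV-825, -0.18 with OTX015 and -0.18 with RUNX1 shRNA. CD74 also serves as a receptor for the cytokine MIF. Of its 5 ligand and co-receptor genes, 2 rose and 3 fell with ARV-825, and 1 rose and 2 fell with OTX015. MIF rose by 0.67 with ARV-825 and by 0.23 with OTX015. CXCR2, a chemokine receptor that can pair with CD74, averaged 3.94 FPKM with ARV-825, 4.39 FPKM with OTX015 and 25.0 FPKM in controls (log2 change -2.40 with ARV-825 and -2.29 with OTX015). With RUNX1 shRNA, 3 of the 5 fell (CXCR4 by 0.60, DDT by 0.22 and MIF by 0.21) and 0 rose by limma, also at an unadjusted p under 0.05, while CD74 itself rose. The median of the 5 was -0.49 with ARV-825, 0.02 with OTX015 (-0.02 when rescaled) and -0.21 with RUNX1 shRNA. The remaining class II genes with values, HLA-DOA, HLA-DOB and HLA-DQB2, were under the minimum for testing in both experiments. HLA-DOB averaged 0.283 FPKM with RUNX1 shRNA and 0.540 FPKM with non-targeting shRNA, and HLA-DOA 0.769 and 0.489 FPKM. In both genes the libraries were apart, while those of HLA-DQB2 overlapped. HLA-DRB3 and HLA-DRB4 were looked for and had no entry, and their part in the HLA-DRB1 and HLA-DRB5 values was not tested.

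Likeness to a member was measured as the root mean square difference between the log2 changes with ARV-825, OTX015 and RUNX1 shRNA, over 10572 genes tested in both experiments. The members themselves were left out of the ranking, so they could not appear among the nearest genes. The genes nearest to HLA-DRA were PREPL (0.065), STAC3 (0.070), TAF9B (0.071), AP000275.65 (0.071) and DPY19L3 (0.075). PREPL changed by 0.36 with ARV-825, 0.04 with OTX015 and 0.21 with RUNX1 shRNA. The genes nearest to CIITA were GPR35 (0.16), CXCR2 (0.16), ASB2 (0.19), ERG (0.19) and DENND2D (0.20). GPR35 changed by -2.57 with ARV-825, -2.13 with OTX015 and 0.16 with RUNX1 shRNA. The measure rests on 3 changes per gene, and the contrasts with ARV-825 and OTX015 share their controls.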

How the data were processed

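Each library's group follows its treatment label. The series design states biologic triplicates, with no day or batch given. A p-value here reflects library-to-library spread, which may in part be technical. Same-numbered libraries did not deviate together (correlations of -0.321 to 0.0613), and no block was used.

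The authors deposited 1 table of 9 drug libraries and 1 of 6 shRNA libraries. The values were read as FPKM that the authors had quantile normalized, since Cufflinks 2.0, TopHat2 2.0 and the build hg19 are listed per the submitters' processing notes and 93.0% to 97.8% of values recur between libraries. No source used here states the unit, the strand, the RNA selection or the annotation. Symbols were checked against GENCODE 29 by gene ID (19379 matched). Left out were 16 pseudoautosomal copies, and 28 symbols turned into dates were restored. No 2 libraries shared more than 60 equal values among tested genes.

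Values were analysed as log2(FPKM + 1) with limma 3.58.1 in R 4.3.3 (lmFit and eBayes with a trend, two-sided, Benjamini-Hochberg over every gene averaging 1 FPKM or more, threshold 0.05). The 9 drug libraries shared 1 fit of 3 contrasts (10819 genes), and the 6 shRNA libraries had their own (10925 genes). The fit was tested on simulated data. Overlapping genes came from GENCODE 29 and promoters from RefSeq, matched by symbol for 8 of 10 members. All members are named. Of each pathway list, the 2 called genes with the largest rise and the 2 with the largest fall in a contrast could be named. The members, pathway lists, markers and tests were chosen with earlier results of these data known. BRD2, DEXI and RUNX3 were added after their values were seen. Alternatives were the pseudocount, the filter, median-ratio rescaling, no trend, a replicate block, fits of 2 groups and leaving out each library. A gene of the list of CIITA regulators is counted in the list and not reported here by name.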

Additional observations from a re-analysis of the deposited data

How the results depend on the processing

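The comparisons rest on 3 libraries a group and on values without known depth, and HLA-DQA1, HLA-DQB1, HLA-DMB and treated CIITA lie where the log2(FPKM + 1) scale compresses change. Of 438 recomputed member values, 414 kept direction and side of the threshold, 12 lost a call, 2 gained one and 10 changed sign. Members lower with ARV-825 numbered 0 at a mean of at least 5 FPKM, a minimum that leaves out CIITA and HLA-DMB, and 1 to 2 when each library was left out. With OTX015, 1 member was called at that minimum, and it was lower. Members higher with OTX015 numbered 0 to 1 when each library was left out. Members called with RUNX1 shRNA numbered 5 to 7 over the alternatives.

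None of the sign changes concerned a called change, and their cause was not tested. With OTX015, HLA-DRA was at -0.0288 under median-ratio rescaling. Leaving out each library in turn, changes with OTX015 ran from -0.0101 to 0.0309 for HLA-DRA, -0.1829 to 0.0104 for HLA-DRB1, -0.0049 to 0.0872 for HLA-DPB1 and -0.0297 to 0.0168 for CD74. The CD74 change with ARV-825 ran from -0.0104 to 0.0938. For ARV-825 minus OTX015, CD74 ran from -0.0022 to 0.102 and HLA-DMB from -0.1427 to 0.0041. Fits with the replicate number as a block called the same counts of members (7 with ARV-825, 3 with OTX015, 5 between the compounds and 7 with RUNX1 shRNA). Over all genes the block gave 7771 calls with ARV-825, against 8025 without it, and 2585 with RUNX1 shRNA, against 2988. A fit of ARV-825 and OTX015 alone left CIITA and HLA-DMB under the minimum.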
